A study of Mus musculus with 6 samples.

Results

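Angptl4, Vnn1, Hsd17b11, Ucp2 and Creb3l3 are PPAR-responsive genes, and their expression was followed in mouse intestinal organoids cultured with LDL. These 5 genes, of 55416 in the table, were selected on their values in this same comparison of LDL with PBS, so their differences between treatments are given as a description with no test. All 5 passed the filter on low values (a mean normalized count of at least 10), as did 18459 genes in all. RNA-Seq was performed on organoids grown from small intestinal crypts (duodenum and jejunum) of 3 C57BL/6 mice labelled WT, whose age the labels do not give. Crypts of each mouse were cultured for 5 days with 50 μg/ml LDL or with PBS, in IntestiCult medium and Matrigel, which gave 1 library per mouse and treatment and 6 libraries in total. The animal identifier begins with WT for mice 1 and 2 but not for mouse 3, although the genotype label of mouse 3 is also WT, so results are also given without mouse 3.

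PPARs are nuclear receptors that bind fatty acids and their derivatives. They pair with RXR on DNA at direct repeats of a short core motif and switch on genes of fatty acid uptake, oxidation and storage. In the small intestine, PPARα and PPARδ respond to dietary lipid. The 5 genes act at different places in lipid metabolism. Angptl4 encodes a secreted inhibitor of lipoprotein lipase. Vnn1 encodes a membrane-anchored pantetheinase that frees pantothenate, the precursor of coenzyme A, and cysteamine. Hsd17b11 encodes a short-chain dehydrogenase found on lipid droplets. Ucp2 encodes a carrier of the mitochondrial inner membrane, and Creb3l3 encodes CREBH, a transcription factor of liver and intestine that is held in the ER membrane until proteases release it.

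The sequences before the start sites of these genes are shown because the core motif AGGTCA, bound by PPAR-RXR as a direct repeat, can be looked for in them. RefSeq promoter windows (GRCm38.p6) were matched for 3 of the 5 genes, Hsd17b11, Ucp2 and Creb3l3. Windows of 250 bases before the start are given 5′ to 3′ on the strand of the gene, with AGGTCA on this strand in capitals.
Hsd17b11 (chr5:104021797-104022046, minus strand): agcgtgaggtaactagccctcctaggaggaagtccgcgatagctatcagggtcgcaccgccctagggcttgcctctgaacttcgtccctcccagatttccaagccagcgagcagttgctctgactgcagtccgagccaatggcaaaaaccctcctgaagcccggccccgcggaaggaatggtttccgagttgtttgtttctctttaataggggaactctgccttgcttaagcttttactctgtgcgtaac
Ucp2 (chr7:100493108-100493357, plus strand): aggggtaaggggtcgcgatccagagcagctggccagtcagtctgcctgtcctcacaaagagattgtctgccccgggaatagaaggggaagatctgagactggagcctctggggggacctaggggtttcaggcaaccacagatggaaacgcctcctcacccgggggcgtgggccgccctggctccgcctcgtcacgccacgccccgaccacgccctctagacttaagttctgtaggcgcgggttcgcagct
Creb3l3 (chr10:81092592-81092841, minus strand): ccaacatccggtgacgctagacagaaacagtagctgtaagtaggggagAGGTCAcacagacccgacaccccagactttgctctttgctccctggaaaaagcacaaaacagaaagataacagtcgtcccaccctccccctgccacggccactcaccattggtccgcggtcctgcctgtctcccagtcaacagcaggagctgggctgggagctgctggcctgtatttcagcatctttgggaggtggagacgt
The Creb3l3 window held 1 copy of AGGTCA, at bases 202 to 197 before the start. No copy was found on either strand in the windows of Hsd17b11 and Ucp2, or in the window of the second annotated start of Creb3l3 (chr10:81098873-81099122). Of the 32851 windows of this length for all genes, 14.0% held AGGTCA or its reverse complement TGACCT. The direct repeat AGGTCANAGGTCA was in 0.0335% of windows and in none of these 4, and the looser form AGGNCANAGGNCA, which includes it, was in 0.338% of windows and also in none of these 4. Such a match in letters is a description and not a binding site.

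Each library held 22061545 to 31073360 reads assigned to genes, and the 5 genes held 83 to 8352 reads each in a library. The LDL-treated library of mouse 1 had reads on 35781 genes, against 29285 to 32751 in the other libraries. Mitochondrial genes took 8.66% to 10.2% of reads. Markers of stromal, immune, endothelial and fat cells were near 0. Of 22 such markers 4 passed the filter, and their summed normalized count was 71.8 to 152 with LDL and 94.4 to 111 with PBS. In bulk RNA, a change in the number of cells of a type and a change in RNA per cell cannot be told apart.

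Expression of all 5 genes was higher with LDL in every mouse. Vnn1 had the largest difference, 9.27-fold between means, followed by Angptl4 (6.75-fold), Hsd17b11 (4.22-fold), Creb3l3 (4.07-fold) and Ucp2 (1.33-fold). For each of them the lowest LDL-treated library lay above the highest PBS-treated library, which was the case for 11.9% of all genes tested. With limma, calling at an adjusted p under 0.05 and a change over 1.5-fold, 4 of 5 were called upregulated without and with the mouse as a block, where 0.878% and 5.68% of all genes were. Since the genes were selected on this comparison, nothing is read from these counts.

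Angptl4 (ENSMUSG00000002289, chr17:33992724-34000804 in GRCm39, minus strand) had normalized counts of 1783, 1901 and 1954 in LDL-treated organoids of mice 1, 2 and 3, and of 263, 244 and 329 in PBS-treated organoids. The treatments were far apart, with the lowest LDL-treated library 5.42-fold above the highest PBS-treated one. Means were 1879 ± 87.5 and 279 ± 44.7 (SD, n = 3 mice), a log2 fold change of 2.76 ± 0.13 (SE). Among the 5 genes, Angptl4 had the tightest values with LDL, where its coefficient of variation was 4.65%, against 16.0% with PBS. The fold change was 6.77, 7.80 and 5.94 in the 3 mice.

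Vnn1 (ENSMUSG00000037440, chr10:23770586-23781241, plus strand) had normalized counts of 1061, 586 and 996 with LDL and 89.8, 103 and 92.0 with PBS in mice 1, 2 and 3. All LDL-treated libraries were high, and that of mouse 2 was the lowest of them. The means were 881 ± 258 with LDL and 95.0 ± 7.14 with PBS, and the log2 fold change was 3.15 ± 0.23. Here the spread lay among the LDL-treated libraries, with a coefficient of variation of 29.3%, against 7.52% with PBS. Mouse 2 accordingly had the smallest fold change, 5.68, against 11.8 in mouse 1 and 10.8 in mouse 3.

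Hsd17b11 (ENSMUSG00000029311, chr5:104137628-104169902, minus strand) had normalized counts of 3738, 4900 and 4020 with LDL and 1047, 1071 and 883 with PBS. The LDL-treated library of mouse 2 was the highest, and the treatments were separated by 3.49-fold at their nearest. Means of 4219 ± 606 and 1000.3 ± 103 gave a log2 fold change of 2.07 ± 0.13. Its fold changes in the 3 mice were 3.57, 4.57 and 4.56.

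Creb3l3 (ENSMUSG00000035041, chr10:80920141-80934708, minus strand) had normalized counts of 1065, 1742 and 1441 with LDL and 304, 430 and 310 with PBS. Mouse 2 was the highest under both treatments, and the groups did not overlap. Means were 1416 ± 339 and 348 ± 70.9, with a log2 fold change of 2.01 ± 0.21. Each mouse taken by itself gave a fold change of 3.50, 4.05 or 4.64. The call of Creb3l3 as upregulated was lost when the PBS-treated library of mouse 1 or the LDL-treated library of mouse 3 was left out. Its log2 fold change was then 1.92 and 1.98, respectively.

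Ucp2 (ENSMUSG00000033685, chr7:100142055-100151227, plus strand) had normalized counts of 6075, 7595 and 6803 with LDL and 4686, 4979 and 5710 with PBS. The groups nearly touched, with the lowest LDL-treated library 1.06-fold above the highest PBS-treated one. Means were 6825 ± 760 and 5125 ± 527, and the log2 fold change was 0.41 ± 0.12. This was below the 1.5-fold limit for a call, and 13.7% of all genes tested had a larger log2 fold change. By mouse, the fold change of Ucp2 was 1.30, 1.53 and 1.19. Exons of Ucp2 share 1095 bases with those of Dnajb13 on the opposite strand, which held 168 to 343 reads per library against at least 4007 for Ucp2, and the strand setting of the counting is not given in the sources used here.

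**Figure D1:**
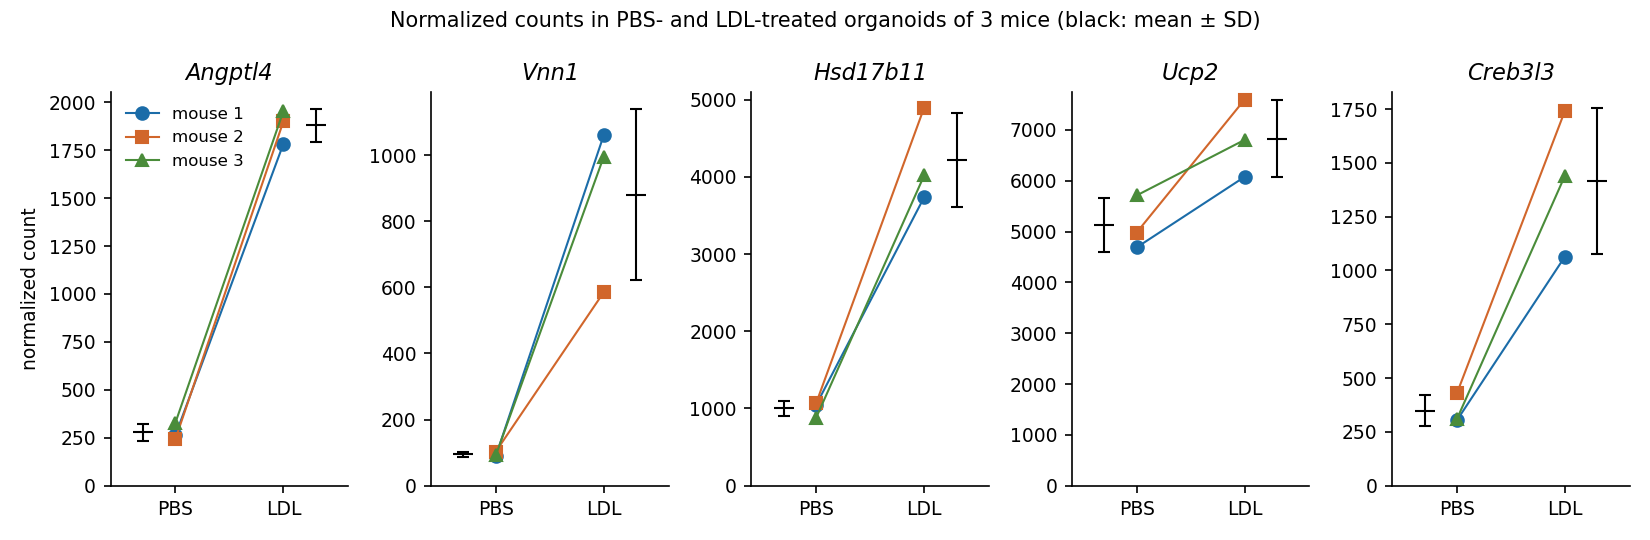
Normalized counts (vertical axes, linear and starting at 0, a different scale for each gene) of the 5 genes with PBS and with LDL. Each symbol and line is 1 mouse, and black bars are the mean ± SD of 3 mice. Every line rises from PBS to LDL, steeply for Angptl4, Vnn1, Hsd17b11 and Creb3l3 and slightly for Ucp2, and mouse 2 (squares) is the lowest with LDL for Vnn1 and the highest for Hsd17b11, Ucp2 and Creb3l3.

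Levels of different genes were compared as normalized counts per kilobase of all exons joined. With PBS, the order from high to low was Ucp2 (698 ± 71.7), Hsd17b11 (296 ± 30.4), Creb3l3 (95.2 ± 19.4), Angptl4 (62.0 ± 9.93) and Vnn1 (27.5 ± 2.07), and no neighbours in this order overlapped. With LDL, Hsd17b11 came first (1248 ± 179), ahead of Ucp2 (929 ± 104) with no overlap. Angptl4 (418 ± 19.4), Creb3l3 (387 ± 92.8) and Vnn1 (255 ± 74.6) followed. The libraries of Angptl4 and Creb3l3 overlapped with LDL, as did those of Creb3l3 and Vnn1. Per kilobase of the canonical transcript, a choice made after the values were seen, the order with PBS was the same, and with LDL Creb3l3 (577) and Angptl4 (568) changed places.

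Differences between mice were not used to select the genes and were tested with the F test of the mouse in limma, with treatment in the model. None of the 5 genes differed between mice, with adjusted p-values of 0.359 for Angptl4, 0.571 for Vnn1, 0.276 for Hsd17b11, 0.350 for Ucp2 and 0.0798 for Creb3l3. Of all genes tested, 2.18% differed at an adjusted p under 0.05. By the same F test 1 of 5 (Creb3l3) had an unadjusted p under 0.05, a limit at which the share of all genes was not counted. In contrast, 9 of 12 enterocyte markers differed between mice by the same test. When PBS mouse 2 was omitted 3 of the 5 (Vnn1, Ucp2 and Creb3l3) differed, as did 27.5% of all genes. Creb3l3 alone differed when PBS mouse 1 or LDL mouse 2 was omitted, where 6.36% and 13.5% of all genes did.

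The genes whose values ran most closely with each of the 5 were found by Pearson correlation of log2(normalized count + 1) over the 6 libraries, among 11907 genes with a mean of at least 100. The 6 libraries share the treatment difference, and the 3 highest of so many genes are shown, so the values are a description only. For Angptl4 they were Entpd8 (r = 0.997), Serinc2 (0.995) and Me1 (0.993), the cytosolic malic enzyme that makes NADPH. For Vnn1 they were Srxn1 (0.996), which repairs oxidized peroxiredoxins, the processed pseudogene Gm3320 (0.996) and Ppp2r2d (0.996). Hsd17b11 ran with the long non-coding RNA Gm48795 (0.998), Pdxk (0.995) and Cpt1a (0.995), the carnitine acyltransferase that admits fatty acids to mitochondria. Creb3l3 ran with Plin2 (0.997), a coat protein of lipid droplets, Abhd3 (0.997) and Por (0.995), which passes electrons to cytochromes P450. The genes nearest to Ucp2 were Depdc7 (0.995), Clns1a (0.984) and Nop9 (0.978).

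The receptors themselves were compared next. Of the PPAR and RXR genes, 5 of 6 were tested and none was called by limma or by edgeR. Ppard, encoding PPARδ, had normalized counts of 1220, 568 and 1048 with LDL and 615, 440 and 551 with PBS. The LDL-treated library of mouse 2 was low and lay between the PBS-treated libraries of mice 1 and 3, so the groups overlapped. For Ppard the log2 fold change reached 0.76 ± 0.27, at an adjusted p of 0.183 in limma without the block and 0.00777 with the mouse as a block, where it was called upregulated (5.68% of all genes were), and DESeq2 also called 1 receptor gene. The log2 fold change was 0.05 ± 0.22 for Ppara and -0.01 ± 0.11 for Pparg, which encode PPARα and PPARγ, and -0.38 ± 0.14 for Rxra and -0.29 ± 0.18 for Rxrb, their RXR partners. At an unadjusted p under 0.05, 1 receptor gene was higher and 1 was lower, where 9.96% and 9.73% of all genes were. DESeq2 called 4.58% of all genes upregulated and 1.89% downregulated, and edgeR called 1.01% and 0.379%. Rxrg had 1 read in all libraries. None of 13 PPAR cofactors was called by limma, DESeq2 or edgeR, with 3 lower and 0 higher at an unadjusted p under 0.05. With the mouse as a block Lpin1, a phosphatidate phosphatase that also acts as a coactivator, was downregulated (log2 fold change -0.63, adjusted p 0.00514), as were 3.46% of all genes.

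Other PPAR-responsive genes were counted in 8 lists by process. The lists were written with earlier results of these data known, and 10 of the tested genes are among those the publication names from these samples, so the counts are not independent evidence of a direction. Of 76 genes, 69 were tested, and 21 were upregulated and 0 downregulated by limma, where 0.878% and 0.395% of all genes were. At an unadjusted p under 0.05, 39 of the 69 were higher and 1 was lower, beside 9.96% and 9.73% of all genes. With the mouse as a block 34 of 69 were upregulated, against 5.68% of all genes, and DESeq2 called 32, against 4.58%. Without the 10 genes, 15 of 59 were upregulated. The median log2 fold change was 0.66 over the 69 genes, as against -0.02 over all genes tested, and 48 of the 69 were higher with LDL in every mouse, as were 24.2% of all genes. Omitting single libraries lowered the number upregulated to 5 (LDL mouse 3), 7 (PBS mouse 1) or 8 (PBS mouse 3). Without both libraries of mouse 3, which leaves 2 mice, limma called none of the 69 and none of the 18459 genes, with 26 of the 69 and 1272 of all genes at an unadjusted p under 0.05.

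Mitochondrial fatty acid oxidation had 5 of 15 tested genes upregulated (7 with the block). They were Slc25a20, the carnitine-acylcarnitine carrier, with a log2 fold change of 1.13 ± 0.20, Cpt1a (1.05 ± 0.10), Hadhb (0.94 ± 0.17), Acadl (0.91 ± 0.12) and the carnitine transporter Slc22a5 (0.76 ± 0.12). Cpt1a had normalized counts of 6269, 7060 and 5936 with LDL and 3031, 3222 and 3000.1 with PBS, with no overlap. In the peroxisome 3 of 12 were upregulated (5 with the block). Among these were the thiolase Acaa1b (2.12 ± 0.35) and the transporter Abcd3 (0.79 ± 0.11).

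All 4 tested genes of microsomal fatty acid oxidation were upregulated. Cyp4a10, a fatty acid ω-hydroxylase, had normalized counts of 682, 2346 and 1189 with LDL and 3.06, 7.46 and 7.33 with PBS. It had the largest log2 fold change of the lists, 7.56 ± 0.47, and mouse 2 was the highest with LDL. Cyp4a31 (4.86 ± 0.77) and Cyp4a32 (4.42 ± 0.50) are near-identical to Cyp4a10 and may share its reads, so their values are uncertain. Aldh3a2, a fatty aldehyde dehydrogenase, had a log2 fold change of 1.05 ± 0.09.

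Of the 9 tested genes of ketone body and glucose metabolism 4 were upregulated. Pdk4, a kinase that inhibits pyruvate dehydrogenase, had normalized counts of 633, 435 and 358 with LDL and 10.2, 3.73 and 9.77 with PBS, a log2 fold change of 5.80 ± 0.38. The LDL-treated libraries of Pdk4 were all far above the PBS-treated ones. The aquaglyceroporin Aqp3 (3.80 ± 0.68) and Me1 (1.98 ± 0.08) were also upregulated.

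Lipid droplet genes were upregulated in 3 of 11 cases (5 with the block), Mgll, a monoglyceride lipase (3.34 ± 0.61), Cidec, which promotes droplet growth (1.76 ± 0.21), and Plin2 (1.16 ± 0.13). Fabp1, the liver-type fatty acid binding protein, was upregulated (2.74 ± 0.42) among 9 genes of uptake and binding, 4 of which were with the block. Acot12 was the 1 of 6 acyl-CoA thioesterases upregulated (3.01 ± 0.29), while 5 were with the block. No secreted or lipoprotein gene of the list was called among 3 tested by limma, with or without the block, DESeq2 or edgeR, and 0 had an unadjusted p under 0.05. The core motif was found in RefSeq windows of 13 of the 60 list genes with a window, beside 14.0% of all windows, and the looser direct repeat for 1 of 60 (Fabp1), beside 0.338%. A gene can have several windows, so these counts of genes and shares of windows are not directly comparable. Of the 13 genes 4 were upregulated, 9 had a log2 fold change above 0 and 4 below, and of 44 tested genes without the motif 13 were upregulated, 38 were above 0 and 6 below.

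**Figure D2:**
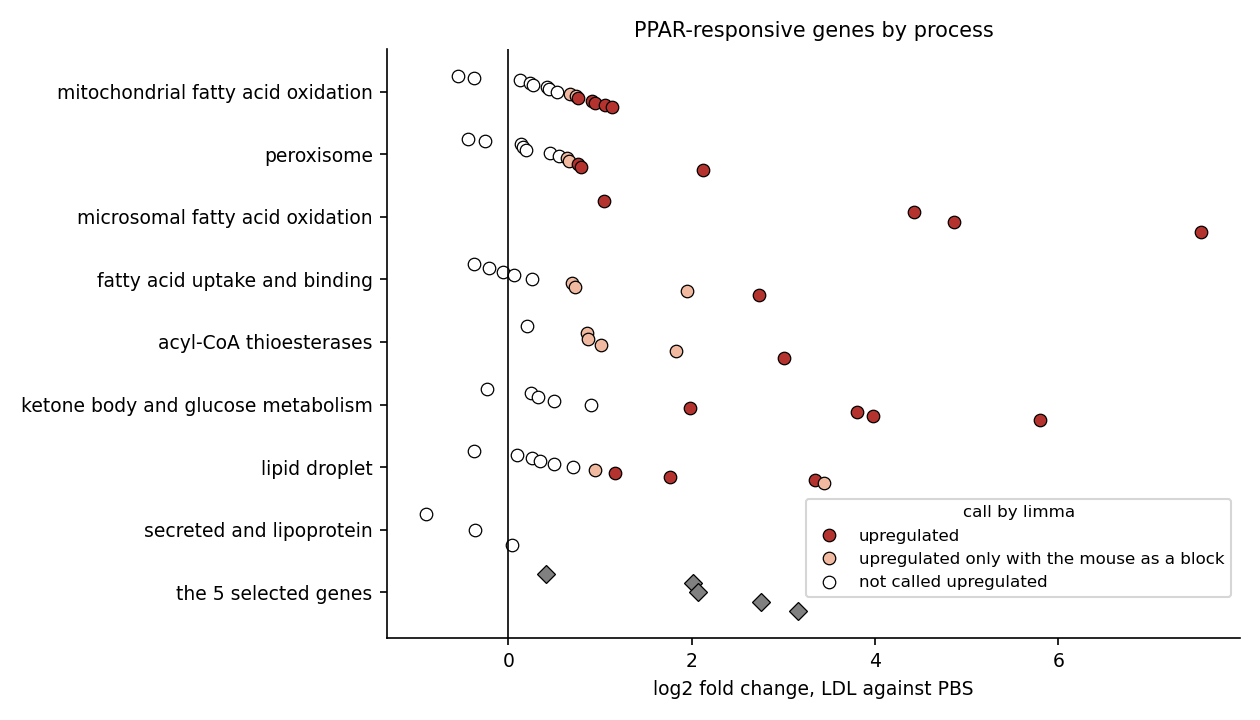
Log2 fold change of LDL against PBS (horizontal axis) for the 69 tested PPAR-responsive genes by process (dots) and for the 5 selected genes (grey diamonds). Red dots are the 21 genes called upregulated by limma, pale dots those called only with the mouse as a block, and white dots the rest, and vertical offsets within a process only separate the symbols. Microsomal genes and Pdk4 reach the highest values, and 58 of the 69 dots lie to the right of 0.

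Genes related to the 5 by family or function were compared in the same fit. Of 5 tested angiopoietin-like genes other than Angptl4, 1 was called. Angptl8, which takes part in complexes that set lipoprotein lipase activity, had normalized counts of 110, 149 and 131 with LDL and 244, 328 and 238 with PBS. All LDL-treated libraries were below all PBS-treated ones, and Angptl8 was downregulated with a log2 fold change of -1.04 ± 0.19 (adjusted p 0.0444, limma), opposite in direction to Angptl4, where 0.395% of all genes were downregulated. The direction held in every alternative, but the call was lost when any single library other than that of LDL-treated mouse 2 was left out, with adjusted p-values of 0.0895 to 0.201. Angptl2 had 0.02 ± 0.22, Angptl7 -0.20 ± 0.22 and Angptl1 -0.39 ± 0.31 as log2 fold changes. Angptl6 did not pass the filter. Of the lipase and its partners, Lpl itself, Lipc and Gpihbp1 did not pass the filter, with at most 8.54 normalized counts in a library. Of the 3 tested genes of this list none was called by limma or edgeR, with 1 higher and 1 lower at an unadjusted p under 0.05, and DESeq2 called 1 downregulated. Lipg, the endothelial lipase, had 668, 1886 and 1091 normalized counts with LDL and 2386, 4145 and 3275 with PBS. This gave a log2 fold change of -1.52 ± 0.36, at an adjusted p of 0.0863 without the block and 0.000406 with it, where it was called downregulated, as were 3.46% of all genes. Furin, a protease that cleaves angiopoietin-like proteins and lipases, was not called with or without the block, with a log2 fold change of 0.52 ± 0.20 and higher values with LDL in all 3 mice. Its adjusted p in limma with the block was 0.00610, but its change was below 1.5-fold. The lipase maturation factor gene Lmf1, with -0.32 ± 0.15, was not called either.

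None of 9 genes of pantetheine and coenzyme A metabolism was called by limma with or without the block, DESeq2 or edgeR, and 0 had an unadjusted p under 0.05. Their log2 fold changes were from -0.33 (Coasy, the last enzyme of coenzyme A synthesis) to 0.28 (Ppcs, which acts on phosphopantothenate), beside 3.15 for Vnn1. Vnn3, the other vanin gene of the list, had 16 reads in all libraries and was not tested.

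Among the HSD17B dehydrogenases other than Hsd17b11, 8 were tested and none was called by limma, with 3 higher and 2 lower at an unadjusted p under 0.05. DESeq2 called 2 of them upregulated, against 4.58% of all genes, and edgeR called none. With the mouse as a block 1 was upregulated and 2 were downregulated, against 5.68% and 3.46% of all genes. Hsd17b2, which oxidizes estradiol and testosterone, had 333, 167 and 346 normalized counts with LDL and 100.04, 101 and 120.5 with PBS (log2 fold change 1.32 ± 0.28, blocked adjusted p 0.00494). Hsd17b13, a lipid droplet protein whose gene lies beside Hsd17b11 on chromosome 5, had 1083, 3816 and 1361 with LDL and 3456, 4659 and 3403 with PBS. Its LDL-treated library of mouse 2 overlapped the PBS-treated range, and its log2 fold change was -1.09 ± 0.42, with a blocked adjusted p of 0.0157. The mitochondrial Hsd17b10 had a log2 fold change of -0.59 ± 0.20 (blocked adjusted p 0.0195). The other 5 were not called with the block either, with values of 0.94 for Hsd17b14, 0.65 for Hsd17b6, 0.56 for the peroxisomal Hsd17b4, 0.44 for Hsd17b7 and -0.13 for Hsd17b12. Of these, Hsd17b4 and Hsd17b7 had adjusted p-values of 0.00900 and 0.0148 in limma with the block but changed by less than 1.5-fold.

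Of the genes related to Ucp2, Ucp1 and Ucp3 did not pass the filter, and of 3 tested carriers none was called by limma with or without the block, DESeq2 or edgeR, and 0 had an unadjusted p under 0.05. The log2 fold changes were 0.22 ± 0.38 for Slc25a27, 0.11 ± 0.17 for Slc25a14 and -0.10 ± 0.11 for Slc25a30.

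Of 6 genes of the CREB3 family and its proteases, none was called by limma, DESeq2 or edgeR, with 1 higher and 1 lower at an unadjusted p under 0.05. Mbtps1 and Mbtps2, which encode the site-1 and site-2 proteases that release CREBH, had log2 fold changes of 0.11 ± 0.09 and 0.11 ± 0.15. Creb3l2 had 0.43 ± 0.16, Creb3l1 -0.02 ± 0.19 and Creb3 -0.07 ± 0.12. Creb3l4 (-0.61 ± 0.18) was downregulated with the block alone, at an adjusted p of 0.0456. Of 5 tested CREBH targets, Cidec was upregulated, and Apoa4, an apolipoprotein of chylomicrons, was also upregulated with the block (1.18 ± 0.39). Insig2 (0.09), G6pc1 (0.01) and Pck1 (-0.24) were not called. Fgf21, Apoa5, Apoc2 and Hamp did not pass the filter.

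Markers of epithelial cell types were compared in the same fit. Enterocyte markers had 1 of 12 upregulated, Alpi, the intestinal alkaline phosphatase (log2 fold change 2.13 ± 0.22), and with the block Apoa4, Apob, Mttp and Alpi were upregulated and Lct was downregulated. The median of the 12 was 0.10. Their summed normalized count ranged from 73022 to 105272 with LDL and from 51754 to 88976 with PBS. These ranges overlapped, but they do not pair the libraries by mouse, so no lack of change is read from the overlap. Within mice, 6 of the 12 were higher with LDL in every mouse and 4 were lower in every mouse. Of all 18459 genes tested, 4476 were higher and 4955 lower in every mouse. Goblet cell markers had 1 of 7 upregulated (Clca1, 2.81 ± 0.49) and 2 downregulated (Fcgbp, -0.86 ± 0.15, and the secretory chaperone Agr2, -0.75 ± 0.10). Of all genes, limma called 0.878% upregulated and 0.395% downregulated. With the block and in DESeq2, 1 goblet cell marker was upregulated and 3 were downregulated, and edgeR called 1 each way. The goblet cell sums were 26857 to 32188 with LDL and 44449 to 49968 with PBS. None of 7 stem cell, 6 Paneth cell, 8 enteroendocrine and 4 tuft cell markers was called by limma or edgeR. At an unadjusted p under 0.05, 2 stem cell markers were higher and 2 lower, 1 Paneth cell marker was higher and 3 were lower, and 1 enteroendocrine and 1 tuft cell marker were lower. DESeq2 called 1 stem cell marker up and 1 down, 1 Paneth cell marker up and 3 down, and 1 enteroendocrine marker down. With the block 1 stem cell and 1 Paneth cell marker were upregulated, and 2 stem cell, 3 Paneth cell, 1 enteroendocrine (Tac1, -0.66 ± 0.18) and 1 tuft cell marker (Pou2f3, -0.78 ± 0.23) were downregulated, where 5.68% and 3.46% of all genes were. Among enteroendocrine markers 7 of 8 had a log2 fold change below 0, with a median of -0.29. The part of these markers in the values of the 5 genes was not tested.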

How the data were processed

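Organoids of 3 mice, each treated with LDL and with PBS, were measured by RNA-Seq. The deposited signal values are normalized counts, which the authors made by demultiplexing with bcl2fastq 2.20, alignment with STAR, counting per gene with featureCounts and division by 1 DESeq2 size factor per library (tools per the labels; annotation release and strand setting not given in the sources used here). Whole reads (within 0.1) were recovered for 100% of values, and recovery returned 100% of reads in simulated data. Gene names came from GENCODE M39 (GRCm39), which held 54749 of the 55416 identifiers.

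Log2(normalized count + 1) of genes with a mean of at least 10 was compared between LDL and PBS with limma 3.58.1 (R 4.3.3; eBayes with trend, two-sided, Benjamini-Hochberg over 18459 genes). A call required an adjusted p under 0.05 and a change over 1.5-fold. The fit was tested on simulated data. The file holds normalized values, so limma was taken as the main fit, and count models were run on the recovered reads as alternatives. The mouse was no term of the fit, since the published methods give none, and was a block in an alternative. Libraries of 1 number come from 1 animal per the labels, and after removal of treatment means they correlated across genes with r = 0.48, 0.42 and 0.46. P-values of the main fit measure the spread between libraries within a treatment and leave out this pairing. With the block they measure the spread of the treatment difference between these mice. Counts recovered were also tested with edgeR 4.0.16 (quasi-likelihood) and DESeq2 1.42.0. Tables used pandas 2.3.3 and numpy 2.4.6 under Python 3.11.15, and plots were drawn with matplotlib 3.10.9.

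The 5 genes, the lists and the tests were chosen with earlier results of these data known. Named are the 5 genes, the receptors, tested paralogs, up to 6 called genes of each other list and the 3 genes most correlated with each of the 5. Genes outside this rule, such as Dnajb13, Lpin1, Lipg and list genes given as not called or called only with the block, were named after their values were seen. Some genes of the lists enter the counts and are not reported here by name.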

Additional observations from a re-analysis of the deposited data

How the results depend on the processing

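The log2 fold changes of the 5 genes kept their direction under all 18 alternatives, and each moved by less than its spread between mice: 2.67 to 2.89 for Angptl4, 3.00 to 3.42 for Vnn1, 1.96 to 2.15 for Hsd17b11, 0.33 to 0.49 for Ucp2 and 1.85 to 2.20 for Creb3l3. Ucp2 was called in none. Without both libraries of mouse 3, none of the 5 genes was called, and neither was any of the 18459 genes tested. The number of PPAR-responsive genes upregulated, 21, was 34 with the replicate block in limma, 34 with it in DESeq2 and in edgeR, 32 in DESeq2 without it, 5 to 24 with 1 library left out, and 0 without both libraries of mouse 3. None was downregulated, except with 1 library left out, where 0 to 4 were (4 without the LDL-treated library of mouse 2, where 6.14% of all genes were). Other pseudocounts, filters and scalings kept these counts within 1.5-fold. Of the other lists, 7 of 126 tested genes were called in either direction, 34 with the replicate block in limma, 26 in DESeq2, 30 in DESeq2 and 34 in edgeR with the block, 18 of 156 with no filter, 0 without mouse 3 and 0 to 33 with 1 library left out (0 without LDL mouse 3, 33 without LDL mouse 2). The 28 called list genes kept their direction in every alternative that tested them, and 5 to 28 of them kept their call with 1 library left out. The number of the 5 genes that differed between mice, 0, became 0 to 3 with 1 library left out. The causes were not tested. In limma without the block, the 95% interval of the log2 fold change of Ucp2 was 0.14 to 0.69, from 3 mice. Since Ucp2 was selected on this comparison, the interval describes the spread and is not a test.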

Other observations

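Angptl4 is also known to respond to low oxygen and to glucocorticoids, and genes of both responses were listed. Of 19 hypoxia-responsive genes, 2 were upregulated and 0 downregulated by limma, where 0.878% and 0.395% of all genes were, with 7 higher and 2 lower at an unadjusted p under 0.05, beside 9.96% and 9.73% of all genes. Egln3, an oxygen-sensing prolyl hydroxylase, had normalized counts of 489, 666 and 426 with LDL and 133, 205 and 140.03 with PBS, a log2 fold change of 1.72 ± 0.22. The LDL-treated libraries were all above the PBS-treated ones. Slc2a1, the glucose transporter GLUT1, had 1559, 1143 and 1499 with LDL and 731, 806 and 725 with PBS (0.88 ± 0.13). With the mouse as a block 5 were upregulated, adding Pfkfb3 (1.22), Adm (1.18) and P4ha2 (1.41), and Ddit4 (-0.71) was downregulated, beside 5.68% and 3.46% of all genes. The median of the 19 was 0.24.

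Of 6 tested glucocorticoid-responsive genes none was called by limma or edgeR, with 1 higher and 1 lower at an unadjusted p under 0.05. With the block 1 was upregulated and 1 downregulated, beside 5.68% and 3.46% of all genes, and DESeq2 also called 1 each way, beside 4.58% and 1.89%. These were, with the block, Dusp1 (log2 fold change 1.88 ± 0.68), a phosphatase of MAP kinases, and Tsc22d3 (-1.32 ± 0.30), which encodes GILZ.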
